A study of Oncorhynchus mykiss with 6 samples.

Results

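The miR-21 family of rainbow trout skin was represented by 12 entries of the 1426 in the deposited miRNA table. They were all entries whose name, without its species prefix and ignoring case, read mir-21 with no further digit, so both arms, the letters a and b and every length variant were taken. Small RNA libraries had been made from dorsal skin of yellow mutant rainbow trout (YR_S) and of wild-type rainbow trout (WR_S), with 3 libraries in each group and 1 dorsal skin per library. All fish were females at 12 months post hatching and shared 1 pond, and the groups were compared to look for RNA differences that bear on skin immunity. The labels name no treatment, and the gene behind the yellow colour is not given in the sources used here.

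A miRNA is a short RNA that guides a silencing complex to messenger RNAs, mainly through its seed, the bases 2 to 8 counted from the 5′ end. Its hairpin precursor can release a 5p and a 3p strand, of which one is usually kept and the other mostly degraded. In mammals, miR-21 lies next to the gene VMP1, is induced in inflammation and wound repair, and lowers targets such as PDCD4, which holds back translation. Targets in trout were not analysed here, and no genome position is given for any entry.

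The 5p sequences that carried most of the family or differed at an end are shown first, 5′ to 3′, with the seed in capitals and T written for U as in the deposited table. The prefix of a name is the species whose database sequence matched (ssa Atlantic salmon, ola medaka, dre zebrafish, tni green spotted pufferfish, mmu mouse). In a suffix, R and L give bases added to or missing from the 3′ and 5′ ends, and ss marks a substituted base.
ssa-miR-21b-5p and tni-miR-21: tAGCTTATcagactggtgttggc
ssa-miR-21a-5p_R-3: tAGCTTATcagactggtgttg
ola-miR-21_R+2: tAGCTTATcagactggtgttgga
dre-miR-21_R+2: tAGCTTATcagactggtgttggcat
ola-miR-21_L+1: cTAGCTTAtcagactggtgttg
The 3p strands are shown because in this table only they carry bases that tell miR-21a from miR-21b.
ssa-miR-21a-3p: cGACAACGgtctgtaagctgt
ssa-miR-21b-3p_R-1: cGACAACAgtctgtaggctgt

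The 12 entries held 11 distinct sequences, since ssa-miR-21b-5p and tni-miR-21 were the same 23-nt sequence with the same counts in every library. The seed AGCTTAT stood in 7 entries. An additional base at the 5′ end moved the seed to TAGCTTA in 2 entries, ola-miR-21_L+1 and ola-miR-21_L+1R+1. No entry outside the family carried either seed. On the 5p side ssa-miR-21a-5p_R-3 was the leading 21 bases of the 23-nt sequence, so it held no base of its own, and ola-miR-21_R+2 differed from the 23-nt sequence only by C23A, counted from the 5′ end with the base of ssa-miR-21b-5p first. The 3p strands differed by G8A and A16G, with the base of ssa-miR-21a-3p first, so that they differ at the last base of the seed, position 8, and have separate seeds. Both mmu-miR-21c entries shared their leading 17 bases with ssa-miR-21b-5p. The entry tni-mir-21-p3, 18 nt long, shared no stretch longer than 4 bases with any other entry of the family.

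The deposited counts of the leading 5p entries were not whole. Those of ssa-miR-21b-5p, tni-miR-21 and ssa-miR-21a-5p_R-3 added up to a whole number in 6 of 6 libraries (tolerance 1e-04), so reads were divided among these 3 entries, which held between 98.8% and 99.1% of all miR-21 counts. The 3 ola entries also had fractional counts, and their sum was whole in 5 of 6 libraries. Their levels therefore rest on divided reads too, and not all of that division lay among themselves. The split between the 23-nt and the 21-nt sequence likewise rests in part on such division, and the family was also described by its sum.

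Library totals lay between 1442631 and 4388665 counts in YR_S and between 4477917 and 5089802 counts in WR_S. YR_S replicate 1 was the shallowest, and with levels given as counts per 1000000 (CPM), a count of 3 equalled 1.95 CPM in it and 0.578 to 0.765 CPM elsewhere. All 5 epidermal marker families (miR-203, miR-205, miR-200, miR-141 and miR-429) were above 0, with a summed level of 23186 to 35123 CPM in YR_S and 26357 to 36677 CPM in WR_S. Of the pigment cell markers miR-204 was present and no entry of miR-211 was listed, and the list summed to 36153 to 39855 CPM in YR_S and 18660 to 23433 CPM in WR_S. The paper states that YR_S skin lacks melanocytes and has fewer xanthophores than WR_S skin. This sum, from miR-204 alone, is therefore not taken as a measure of pigment cells. WR_S replicate 3 stood apart in muscle and liver markers. Its muscle list (miR-1, miR-133, miR-206 and miR-499) summed to 12618 CPM, against 2008 to 4951 CPM in YR_S and 2806 and 6965 CPM in the other WR_S libraries. Its liver miR-122 was at 3405 CPM and no other library exceeded 51.3 CPM. The summed leukocyte list (miR-142, miR-150, miR-223 and miR-155) was 969 to 1550 CPM in YR_S and 1069 to 1672 CPM in WR_S. The red cell list (miR-451 and miR-144) was 106 to 272 CPM in YR_S and 33.5 to 309 CPM in WR_S. The stroma list (miR-199, miR-214, miR-143 and miR-145) was the largest, at 232020 to 325638 CPM in YR_S and 211487 to 266849 CPM in WR_S.

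Summed over the 12 entries, miR-21 made up a large part of the skin libraries. It amounted to 106833, 133084 and 99818 CPM in YR_S replicates 1, 2 and 3, and to 139337, 163597 and 83451 CPM in WR_S replicates 1, 2 and 3. The lowest and both of the highest libraries were wild-type, so the YR_S libraries lay inside the WR_S range. The mean was 113245 ± 17536 CPM in YR_S and 128795 ± 41100 CPM in WR_S (SD, n = 3 each), a ratio of 0.879. As a share of all counts, the family held 11.4%, 11.9% and 9.43% in YR_S and 14.2%, 17.2% and 8.63% in WR_S. The difference of the means was smaller than the SD of WR_S. The highest library was 1.33 times the lowest in YR_S and 1.96 times the lowest in WR_S. With only 1 of the 2 identical 23-nt entries counted, the mean sum was 60070 ± 9699 CPM in YR_S and 68371 ± 21142 CPM in WR_S. Because reads were divided among entries, that smaller sum leaves out reads of the 23-nt sequence and is not a corrected level. In bulk skin, fewer cells of a type and less RNA per cell cannot be told apart.

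The 23-nt sequence of ssa-miR-21b-5p, the strand that is the main product of the gene in other vertebrates, held most of the miR-21 counts. Its levels are given as deposited, with reads divided among entries. Its level was 49966, 62119 and 47439 CPM in YR_S and 64471, 78093 and 38707 CPM in WR_S, for each of its 2 identical entries. The groups overlapped, because WR_S replicate 3 was below all YR_S libraries. Summed over its identical entries, the sequence ranked 2, 2 and 3 among distinct sequences in YR_S replicates 1, 2 and 3 and likewise 2, 2 and 3 in the WR_S replicates. Its neighbours in mean level over the 6 libraries were ssa-miR-199a-5p above it, a miRNA of fibroblasts and other stromal cells, and ssa-miR-100a-5p below it. With the 3, 2 and 2 entries that hold each sequence summed, ssa-miR-199a-5p averaged 191884 ± 37028 CPM, ssa-miR-21b-5p 113599 ± 28316 CPM and ssa-miR-100a-5p 100455 ± 17710 CPM (SD over 6 libraries). The means of ssa-miR-21b-5p and ssa-miR-100a-5p differed by less than either SD. ssa-miR-199a-5p was the highest in each library, although in WR_S replicate 2 it had 156423 CPM beside 156187 CPM of ssa-miR-21b-5p.

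**Figure D1:**
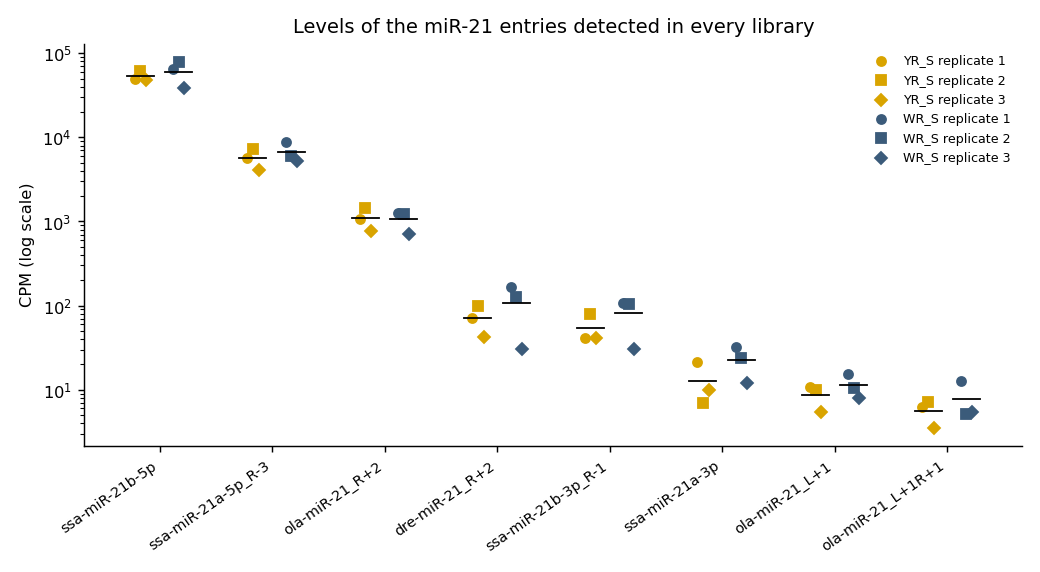
Level in CPM, on a log axis, of the miR-21 entries detected in every library (tni-miR-21, identical to ssa-miR-21b-5p, is left out), with YR_S left of WR_S, 1 point per library and a line at the group mean. The entries span from 78093 CPM down to 3.50 CPM, and the points of both groups overlap in each entry.

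YR_S and WR_S were then compared entry by entry with edgeR's quasi-likelihood test over the 1085 entries detected in 3 or more of the 6 libraries, 10 of them miR-21 entries. For ssa-miR-21b-5p the log2 fold change of YR_S over WR_S was -0.18 ± 0.27 (SE), with a 95% interval of -0.80 to 0.43 and an adjusted p of 0.888 in edgeR's quasi-likelihood test. That interval includes both a fall to 0.576 and a rise to 1.35 times the WR_S level. At an adjusted p below 0.05, 0 of the 10 entries and 0 of the 1085 (0%) were called by edgeR, limma called 0, and DESeq2 called 36 of the 1085 and no miR-21 entry. The study's thresholds were then applied to the edgeR fit. They were a log2 fold change of 1 or more in either direction and p below 0.05 without adjustment. With them 0 of the 10 were called beside 89 of 1085 (8.2%, of which YR_S was higher in 19 and lower in 70). These are not the study's own calls, which came from its own test and were fewer in all. By p below 0.05 without adjustment alone, 113 of the 1085 entries and 0 of the 10 miR-21 entries passed in edgeR. The miR-21 entries are too few to draw a contrast from this. The groups overlapped in CPM in all 12 entries, among them the 10 tested. Over all 1085 entries tested the groups did not overlap in 188 (17.3%). With few miR-21 entries, some of which share reads, no contrast is drawn from this. The fold change was above 0 in 1 of the 10 and below 0 in 9, beside 52.6% of all entries below 0. The miR-21 entries come from the same libraries and some of them share reads, so they are not independent. The median log2 fold change was -0.41 over the 10 entries and -0.03 over all entries tested.

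ssa-miR-21a-5p_R-3, ola-miR-21_R+2 and dre-miR-21_R+2, which begin at the same base as ssa-miR-21b-5p, were each lowest in replicate 3 of their group, in YR_S as in WR_S. The 21-nt ssa-miR-21a-5p_R-3 was at 5679, 7207 and 4075 CPM in YR_S and 8793, 5926 and 5243 CPM in WR_S. Its log2 fold change was -0.24 ± 0.28 (SE) with an adjusted p of 0.856 in edgeR's quasi-likelihood test. ola-miR-21_R+2, which differs from ssa-miR-21b-5p only at its last base, was at 1072, 1435 and 763 CPM in YR_S and 1263, 1215 and 706 CPM in WR_S. Its log2 fold change of 0.04 ± 0.31 was the one above 0, although it was below 0 under 3 of the 4 other scalings. The 25-nt dre-miR-21_R+2, which continues the 23-nt sequence by 2 bases, was at 70.3, 98.7 and 42.0 CPM in YR_S and 166, 125 and 30.3 CPM in WR_S. It had its highest and its lowest library in WR_S (log2 fold change -0.61 ± 0.59, adjusted p = 0.849, edgeR's quasi-likelihood test).

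The entries with a moved seed were scarce. ola-miR-21_L+1 was at 10.7, 9.82 and 5.43 CPM in YR_S and 15.3, 10.5 and 8.05 CPM in WR_S. ola-miR-21_L+1R+1 was at 6.18, 7.14 and 3.50 CPM in YR_S and 12.7, 5.20 and 5.40 CPM in WR_S. Neither was called (log2 fold changes -0.44 and -0.47, adjusted p = 0.849 and 0.856, edgeR's quasi-likelihood test). Together they held 0.0125 ± 0.00346% of the 5p counts in YR_S and 0.0153 ± 0.00531% in WR_S (SD, n = 3 each), so the family used almost a single seed in both groups.

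The composition of the 5p strand differed between the groups by less than the larger SD of the groups for each variant. The 23-nt sequence held 94.0 ± 0.926% of 5p counts in YR_S and 93.7 ± 1.63% in WR_S. The 21-nt sequence held 5.32%, 5.42% and 4.08% in YR_S and 6.32%, 3.63% and 6.29% in WR_S. These are shares of the counts as deposited. The counts of the 21-nt entry became whole when multiplied by 3, so its reads may have been divided with both 23-nt entries. In that case the 21-nt share is too low and the 23-nt share too high. ola-miR-21_R+2 held 0.949 ± 0.164% in YR_S and 0.832 ± 0.0828% in WR_S. The 25-nt variant held 0.0607 ± 0.0167% in YR_S and 0.0775 ± 0.0416% in WR_S, where the share was 0.120% in replicate 1 and 0.0363% in replicate 3.

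The 3p strands, the rarer product of the hairpin, were at 63.1, 85.4 and 50.6 CPM in YR_S and 140, 129 and 42.6 CPM in WR_S when miR-21a and miR-21b were summed. WR_S replicates 1 and 2 were above all YR_S libraries and WR_S replicate 3 was below them. The 5p counts exceeded the 3p counts 1691, 1557 and 1970 times in YR_S and 997, 1268 and 1959 times in WR_S. The 3p share of miR-21 counts was 0.0591%, 0.0642% and 0.0507% in YR_S and 0.100%, 0.0788% and 0.0510% in WR_S. Its means of 0.0580 ± 0.00680% in YR_S and 0.0767 ± 0.0247% in WR_S (SD, n = 3 each) differed by less than the SD of WR_S. Between the highest and the lowest library the 3p level differed 3.28 times and the 5p level 1.96 times.

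**Figure D2:**
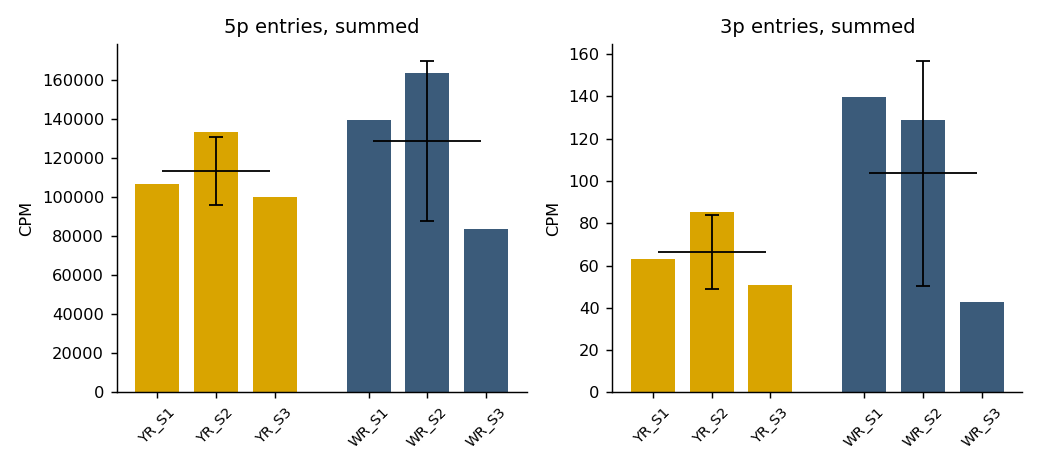
Summed CPM of the 5p entries (left panel) and of ssa-miR-21a-3p plus ssa-miR-21b-3p_R-1 (right panel) in each library, with the horizontal line at the group mean and the bar at ± 1 SD (n = 3 each). YR_S bars stand left of WR_S bars, and WR_S replicate 3 is the lowest library in both panels.

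Since the 5p entry named miR-21a held no base that sets it apart from miR-21b, the 3p strands were used to describe miR-21a and miR-21b separately. ssa-miR-21b-3p_R-1 was at 41.7, 78.6 and 40.8 CPM in YR_S and 108, 105 and 30.5 CPM in WR_S (log2 fold change -0.59 ± 0.51, adjusted p = 0.842, edgeR's quasi-likelihood test). ssa-miR-21a-3p was at 21.5, 6.89 and 9.89 CPM in YR_S and 31.8, 23.6 and 12.1 CPM in WR_S. Its log2 fold change of -0.86 ± 0.54 was the largest in size of the family, with a 95% interval of -2.10 to 0.38 and an adjusted p of 0.707 in edgeR's quasi-likelihood test. Without YR_S replicate 1, the shallowest library, it was -1.51 (unadjusted p = 0.0264, adjusted p = 0.302, edgeR's quasi-likelihood test), and without WR_S replicate 1 or without YR_S replicate 2 it was -0.55.

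miR-21b gave more 3p counts than miR-21a in every library. The counts of miR-21b and miR-21a were 64 and 33, 308 and 27, and 169 and 41 in YR_S replicates 1, 2 and 3. They were 560 and 165, 496 and 111, and 144 and 57 in WR_S replicates 1, 2 and 3. The miR-21b share was 66.0% (95% Clopper-Pearson interval 55.7 to 75.3), 91.9% (88.5 to 94.6) and 80.5% (74.5 to 85.6) in YR_S. In WR_S it was 77.2% (74.0 to 80.2), 81.7% (78.4 to 84.7) and 71.6% (64.9 to 77.8). Both the lowest and the highest share were in YR_S, and the interval of YR_S replicate 2 lay above those of all other libraries. The means, 79.5 ± 13.0% in YR_S and 76.9 ± 5.05% in WR_S (SD, n = 3 each), differed by less than either SD. These intervals cover counting error only. The shares are of 3p counts alone. The 5p counts, nearly all of the family, could not be assigned to miR-21a or miR-21b.

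**Figure D3:**
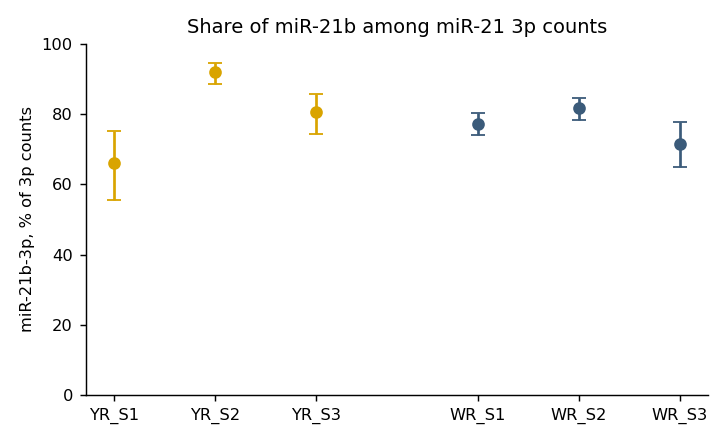
Share of ssa-miR-21b-3p_R-1 among the counts of both 3p strands in each library, in percent, with YR_S left of WR_S and bars for the 95% Clopper-Pearson interval of each library. All libraries lie above 50%, and YR_S replicate 2 is the highest at 91.9%.

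The remaining entries were near or under the floor. mmu-miR-21c_R-2_1ss19CA had 0, 7 and 0 counts in YR_S and 8, 0 and 5 counts in WR_S, and was tested without a call (adjusted p = 0.987, edgeR's quasi-likelihood test). mmu-miR-21c_R-1_1ss19CA had 14 counts in WR_S replicate 1 and 0 in all other libraries. tni-mir-21-p3 had 4 counts in YR_S replicate 2 and 0 in all others. The last pair was not tested.

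The family was lowest in WR_S replicate 3, the library with the highest muscle and liver markers, and the part of these markers in the result was not tested. Both lists together made up 1.66% of its counts. Without this library the summed level of YR_S was 0.748 times that of WR_S. In that fit 9 miR-21 entries were tested and 9 were below 0, with a median log2 fold change of -0.78, beside 57.9% below 0 and a median of -0.11 over all 1001 entries. WR_S replicate 3 was the lowest in the summed family, so leaving it out by itself lowers the fold changes. Some of the entries also share reads, and the counts of entries in this fit are not read as a result. Without adjustment, 5 of the 9 passed the 0.05 threshold of edgeR's test, 2 of which are the identical entries, beside 99 of 1001 (9.89%). ssa-miR-21b-5p then had a log2 fold change of -0.56 ± 0.24 (unadjusted p = 0.0469, adjusted p = 0.480, edgeR's quasi-likelihood test). The others were dre-miR-21_R+2, ssa-miR-21b-3p_R-1 and ssa-miR-21a-3p at -1.20, -1.12 and -1.30, and the smallest adjusted p of the 9 was 0.382 in edgeR's quasi-likelihood test. The library left out was the lowest for ssa-miR-21b-5p, whose SE was 0.27 with all libraries. The p-values of this fit are therefore not read as a result. Leaving out other libraries moved the fold changes the other way. Without WR_S replicate 1, dre-miR-21_R+2, ssa-miR-21b-3p_R-1 and ssa-miR-21a-3p were at -0.22, -0.41 and -0.55 and ssa-miR-21a-5p_R-3 was at -0.05. Without WR_S replicate 2, ssa-miR-21b-5p was at -0.05.

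**Figure D4:**
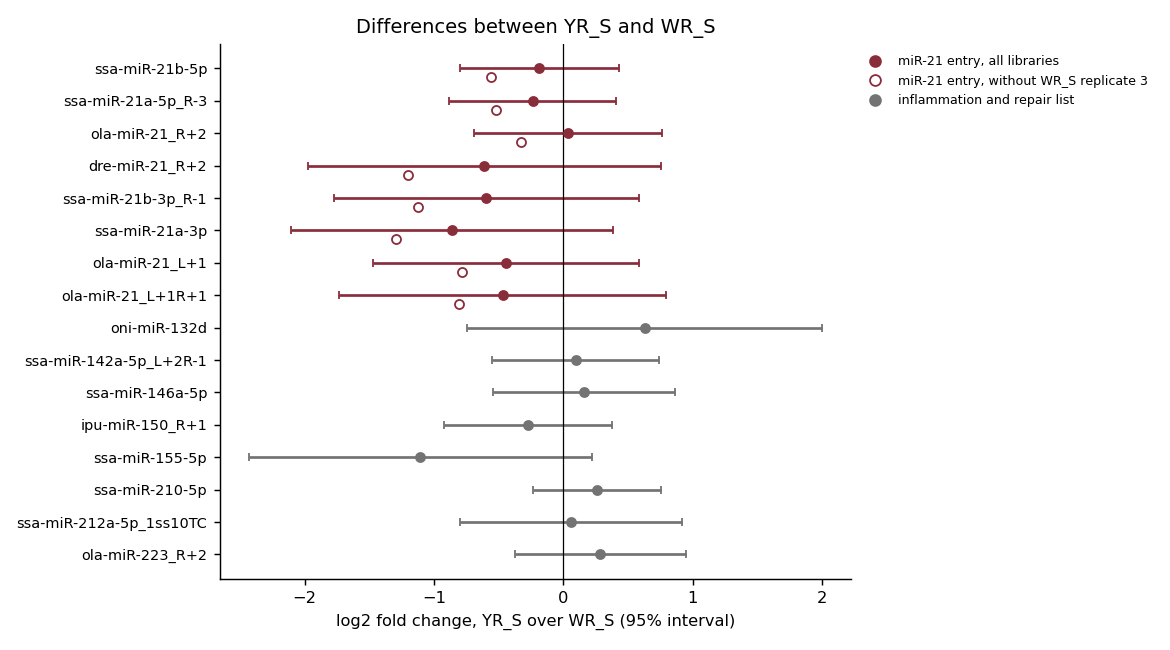
Log2 fold change of YR_S over WR_S from edgeR with its 95% interval, for the miR-21 entries detected in every library and for the most abundant entry of each family in the inflammation and repair list. Every interval includes 0, and open circles give the miR-21 values without WR_S replicate 3, which are all lower than the filled ones.

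Other miRNAs known from mammals for inflammation and repair were compared by name, from the list miR-31, miR-132, miR-142, miR-146, miR-150, miR-155, miR-210, miR-212 and miR-223. Entries were found for 8 of the 9 families, with none for miR-31, and 40 of the 44 entries were tested. Of these 18 were above 0 and 22 below, with a median log2 fold change of -0.07, beside 52.6% below 0 and a median of -0.03 over all entries tested. Some of the 40 repeat the counts of another entry. With identical counts taken once, 15 of 33 were above 0 and 18 below, with a median of -0.06. In edgeR 0 passed the adjustment, and 1 of the 40 (2.5%) passed the study's thresholds, beside 8.2% of all entries. This was dre-miR-155_R+3, named after its values were seen, which had 0 counts in all 3 YR_S libraries, against 1.16, 4.04 and 0.847 CPM in WR_S. It entered the test only through the WR_S libraries, at levels near the 3-count floor of 1.95 CPM in YR_S replicate 1, so nothing is read from its call.

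miR-146, a brake on Toll-like receptor signalling, was the most abundant of the list. Its leading entry ssa-miR-146a-5p was at 16487, 15120 and 11608 CPM in YR_S and 15413, 15882 and 7347 CPM in WR_S, so that it too was lowest in WR_S replicate 3. ssa-miR-155-5p, of an immune-activated family, had a mean of 41.3 ± 15.1 CPM in YR_S, against 88.4 ± 66.1 CPM in WR_S (log2 fold change -1.11, adjusted p = 0.607, edgeR's quasi-likelihood test). The hypoxia-induced ssa-miR-210-5p had a mean of 1118 ± 224 CPM in YR_S, against 934 ± 43.8 CPM in WR_S. Of the leukocyte miRNAs, ipu-miR-150_R+1 had a mean of 298 ± 90.0 CPM in YR_S, against 360 ± 56.5 CPM in WR_S, ssa-miR-142a-5p_L+2R-1 had a mean of 217 ± 32.6 CPM in YR_S, against 202 ± 58.9 CPM in WR_S, and the myeloid ola-miR-223_R+2 had a mean of 122 ± 28.3 CPM in YR_S, against 100.2 ± 18.5 CPM in WR_S. The related oni-miR-132d and ssa-miR-212a-5p_1ss10TC stayed under 14 CPM in every library. None of these 8 entries passed the adjustment.

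The entries whose pattern over the 6 libraries was most like that of ssa-miR-21b-5p were found by the Pearson correlation of log2(CPM + 1) among 184 entries averaging at least 100 CPM. They are the highest of many, share their libraries and scaling, and are given as a description. ssa-miR-146a-3p_R-1 was nearest (r = 0.96), with 167, 189 and 107 CPM in YR_S and 244, 295 and 85.8 CPM in WR_S. ssa-miR-29b-2-5p_L-2 followed (r = 0.94), with 117, 150 and 102 CPM in YR_S and 378, 378 and 42.6 CPM in WR_S. Both had their lowest level in WR_S replicate 3 and their highest in the other WR_S libraries, as ssa-miR-21b-5p had. The next were ssa-miR-146d-5p (r = 0.87), sha-miR-125a_R+2 (r = 0.82) and hsa-miR-200b-3p_R+2 (r = 0.82).

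**Figure D5:**
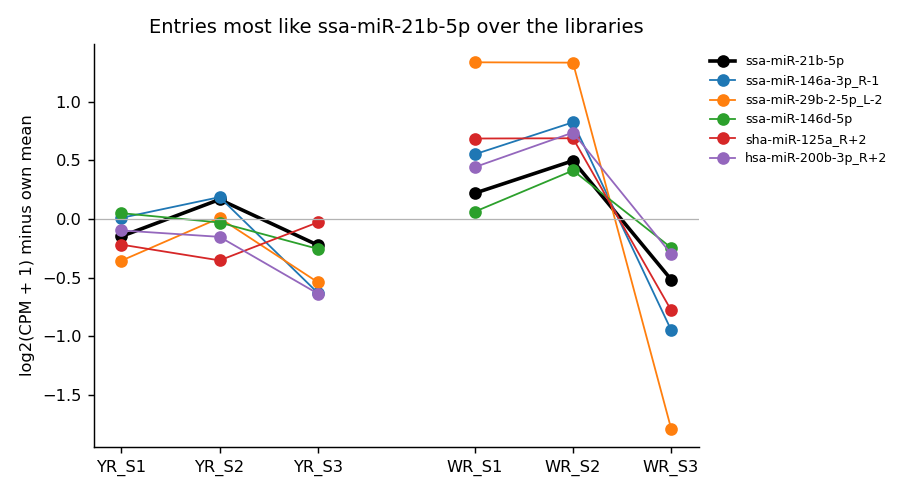
Log2(CPM + 1) minus the entry's own mean over 6 libraries, by library, for ssa-miR-21b-5p (thick black line) and the 5 entries most correlated with it, with YR_S left of WR_S. ssa-miR-29b-2-5p_L-2 has the widest range, and ssa-miR-21b-5p is highest in WR_S replicate 2 and lowest in WR_S replicate 3.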

How the data were processed

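Small RNA of dorsal skin was sequenced single-end in 6 libraries, 3 of YR_S and 3 of WR_S. The authors filtered the reads with ACGT101-miR, matched them to miRBase release 22 and predicted further candidates with Mireap. They deposited an estimated count per entry and library, with shared reads divided among entries (36.8% of non-zero values were fractional, tolerance 1e-06), and a normalized signal, which was the deposited count times 1 factor per library. The authors' group means, fold and log2 ratio and p-value columns were not used. The table had 1 line that named no miRNA.

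Estimated counts were rounded and tested with edgeR 4.0.16 (R 4.3.3, glmQLFit and glmQLFTest, two-sided, TMM scaling), on entries above 0 in at least 3 of 6 libraries, with Benjamini-Hochberg adjustment over all 1085. The common biological coefficient of variation was 0.469. CPM used TMM library sizes. The edgeR fit was also run on simulated counts drawn from its own means and dispersions. That run cannot show how the fit handles divided reads or a library that stands apart. Sums and shares of the family were given without a test, and sequences were ranked by the sum of their identical entries. Alternatives used DESeq2 1.42.0 and limma 3.58.1 on log2(deposited signal + 1), other pseudocounts, scalings and filters, collapsed entries, a replicate block and each library left out. Shares have exact Clopper-Pearson intervals (scipy 1.17.1). Each p-value rests on how libraries varied within a group, with variance estimates that also drew on the other entries tested. The groups had 3 libraries each in the main fit. Where 1 library was left out, its group had 1 library fewer.

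Named entries were all miR-21 entries, the most abundant entry of each family in the inflammation and repair list, the entries next above and below ssa-miR-21b-5p in mean CPM, and the 5 entries most correlated with it. The members and lists were chosen with earlier results of these data known. Positions of the miR-21 genes were not used here.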

Additional observations from a re-analysis of the deposited data

How the results depend on the processing

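Over 19 alternatives the log2 fold change of ssa-miR-21b-5p stayed between -0.56 and -0.05, with adjusted p between 0.480 and 0.995 (edgeR, DESeq2 and limma). The summed miR-21 ratio ranged from -0.42 to 0.02 on the log2 scale when 1 library was left out. ola-miR-21_R+2, at 0.04, stayed above 0 with upper-quartile factors (0.029) and with the replicate block (0.039). It was -0.035 with DESeq2 and with RLE factors, -0.044 with scaling without the miR-21 entries and -0.069 with limma at each pseudocount. It was -0.066 with library totals only, -0.050 with no filter and -0.032 with a mean of at least 10 counts. It was -0.12 with identical sequences collapsed, -0.10 with identical counts taken once, and -0.33 to 0.16 with 1 library left out. With 1 library left out dre-miR-21_R+2 ranged from -1.20 to -0.22, ssa-miR-21b-3p_R-1 from -1.12 to -0.41, ssa-miR-21a-3p from -1.51 to -0.55, ssa-miR-21a-5p_R-3 from -0.52 to -0.05, ola-miR-21_L+1R+1 ranged from -0.81 to 0.017 and mmu-miR-21c_R-2_1ss19CA from -1.07 to 0.16. The cause was not tested. Entries of the whole table at the study's thresholds numbered 55 with a mean of at least 10 counts, where fewer entries are tested, and 56 to 106 with 1 library left out (56 without WR_S replicate 2), against 89. DESeq2 called 36 at an adjusted p below 0.05, against 0. Deviations of same-numbered libraries from their group means had correlations of 0.13, 0.05 and 0.24. No correlation of differently numbered libraries was computed beside them, so these values do not settle whether numbers pair the libraries. The main fit took the libraries as unpaired. With the replicate block the log2 fold change of ssa-miR-21b-5p was -0.14, 77 entries passed the study's thresholds and no miR-21 call changed. The median of all entries lay between -0.22 and -0.01 over the settings. The main limits are 3 libraries per group, the shallow YR_S replicate 1, the scarce 3p entries and the division of reads among entries. In YR_S replicate 1 the 3p entries rest on 33 to 64 counts. ssa-miR-21a-3p had only 27 counts in YR_S replicate 2 and 41 in YR_S replicate 3.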
